A study of Mus musculus with 6 samples.

Results

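The genes described here are 39 genes of antioxidant defence in hepatic stellate cells of the mouse, liver pericytes that store vitamin A. They encode the transcription factor NRF2 (gene Nfe2l2) and its inhibitor, enzymes that make and use glutathione, the thioredoxin and peroxiredoxin enzymes, superoxide dismutases with catalase, and the pentose phosphate pathway that supplies NADPH. The members were named gene by gene and found by symbol in the deposited exon count table. All 39 were present among its 24940 rows, and all 39 passed the filter on low counts that left 13357 genes for testing.

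Polyadenylated RNA was sequenced from wild-type primary stellate cells of female C57BL/6JBomTac mice, in 3 libraries per group. At 2 days after isolation the forskolin group received 5 µM forskolin, a plant diterpene that switches on adenylyl cyclases, the enzymes that make cyclic AMP, and the vehicle group an equal volume of dimethyl sulfoxide, diluted 1 to 1000. Both groups got fresh medium at 3 h, and the cells were lysed for RNA after 21 h more, 24 h from the start. The libraries are named A, B and C, and no label says whether they came from separate animals, pools or cultures, and p-values are therefore relative to the variation among these libraries alone, which may be only technical.

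NRF2 is held in the cytoplasm by KEAP1 and degraded, and oxidants or electrophiles that modify KEAP1 let it enter the nucleus, where it pairs with small MAF proteins on antioxidant response elements. Its best known targets are the genes for glutamate cysteine ligase, quinone reductase, thioredoxin reductase, sulfiredoxin and several glutathione transferases. Glutathione and thioredoxin both receive their electrons from NADPH. In the liver these systems detoxify reactive oxygen and lipid aldehydes, which are formed in chronic injury when stellate cells become activated.

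The members were more often higher than lower 24 h after the forskolin pulse. They were chosen with earlier results of these data known, so their counts beside those of all genes are a description. Of the 39 members 23 rose and 5 fell (edgeR, adjusted p under 0.05), and 11 did not pass. Over all genes tested 24.8% rose and 25.1% fell by the same rule. With unscaled library sizes 3988 genes rose and 2874 fell, with 28 members higher and 5 lower. The median log2 fold change (forskolin over vehicle) was 0.20 over the members and 0.0082 over all tested genes. In 23 members every forskolin library lay above every vehicle library, and in 5 every one lay below, where such separation held for 28.8% and 28.3% of all genes. Most changes were small. When the test asked for more than a 1.5-fold change, 6 members rose (Gsta4, Srxn1, Nqo1, Mgst1, Gclc and Gclm), against 3.16% of all genes, and 0 fell, against 4.33% (edgeR glmTreat, 0 also at an unadjusted p under 0.05). By share of all deposited counts, the 39 genes held 0.635% to 0.662% in the vehicle libraries and 0.828% to 0.857% in the forskolin libraries. With library size as a covariate, 16 members rose and 4 fell, and their median was 0.13. Every forskolin library held fewer counts than every vehicle library, so this covariate can take up part of the treatment difference. In a fit to genes of at most 1 count per base, 15 members remained, of which 6 rose and 4 fell (median 0.076). In bulk RNA, more RNA per cell and more cells of a type cannot be told apart.

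**Figure D1:**
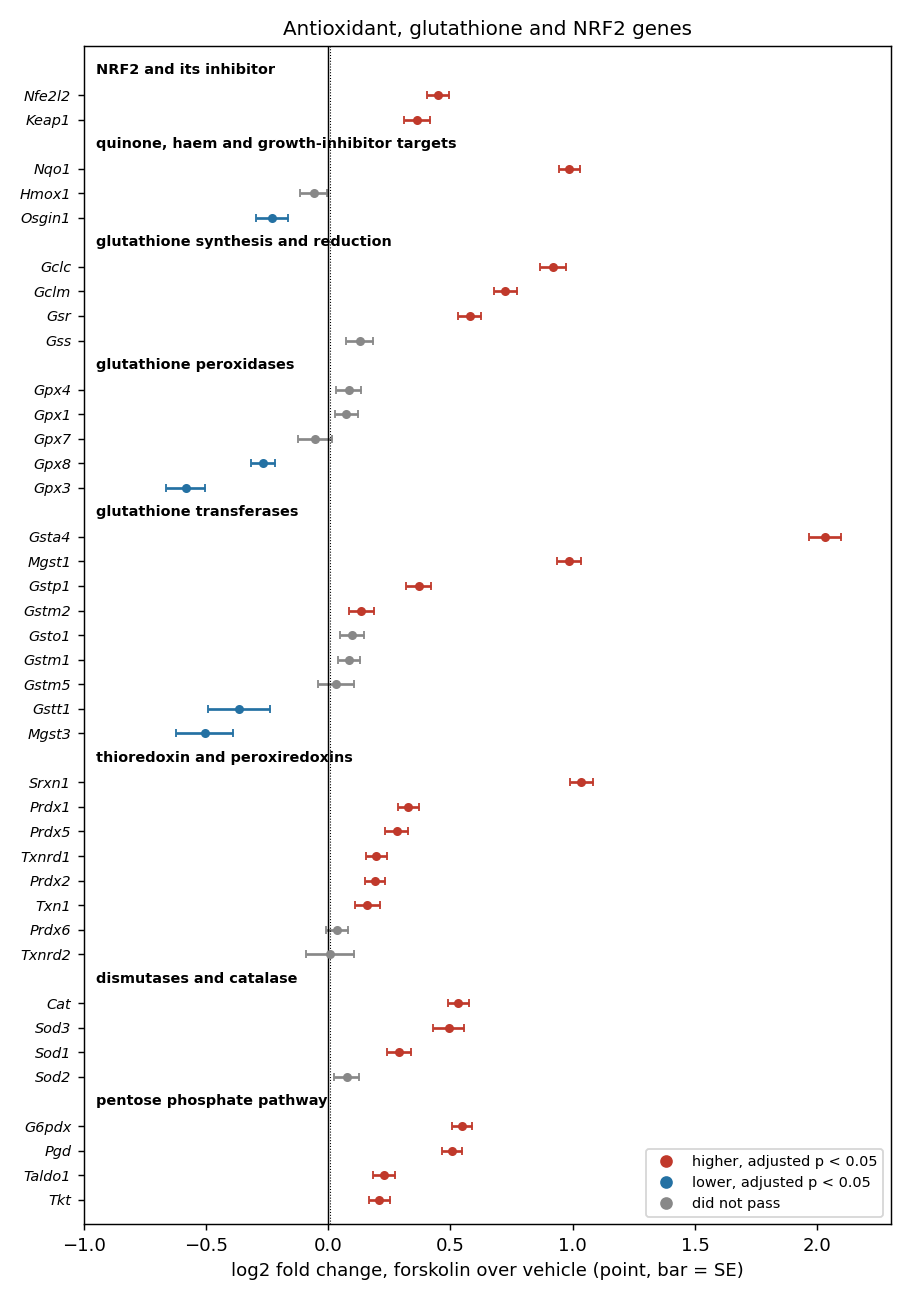
Log2 fold change of forskolin over vehicle (x axis) for each of the 39 genes, grouped by function and ordered by size within a group. Points are edgeR estimates from 3 libraries per group, bars are standard errors, and colour gives the call. Gsta4 stands furthest right at 2.03, and the 5 genes that fell lie between -0.58 and -0.23. The solid line marks 0 and the dotted line the median of all tested genes.

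The forskolin libraries held 10890193 to 12954310 counts each, fewer than the 13001358 to 15090262.5 of the vehicle libraries. All 13 stellate cell markers examined were tested, with a summed level of 6288 to 6628 CPM in vehicle and 6397 to 6665 CPM in forskolin libraries (CPM is the count scaled to library size, here after TMM, a correction for library composition). Within this near-level sum 7 of them rose and 5 fell, among them Hgf at 1.02 and Des at -0.83 (log2 fold change). Hepatocytes are rich in many of these enzymes. Their 12 markers summed to 4.83 to 5.79 CPM with vehicle and 5.01 to 5.92 CPM with forskolin. Among them Serpina1c and G6pc had no counts, and Apoa2 was the only marker abundant enough to be tested. The 12 macrophage markers summed to 34.8 to 36.8 and 38.0 to 39.2 CPM, with Marco at 0 counts. The 3 of them tested all changed, with Cd68 and Csf1r higher (log2 fold change 0.50 and 0.47) and Lyz2 lower (-1.36). The 6 lymphocyte markers summed to at most 0.456 CPM in any library, with Cd3g and Nkg7 at 0. The sums of other lists differed between the groups. The 11 sinusoidal endothelial markers summed to 211 to 222 CPM with vehicle and 96.5 to 98.5 CPM with forskolin, mostly from Flt4, while Pecam1 and Cdh5 stayed under 1 CPM on average. Of the 6 tested 4 fell and 1, Stab2, rose (mean 0.955 to 2.53 CPM), while Stab1 did not pass. The 6 cholangiocyte markers went from 137 to 151 up to 393 to 428 CPM, mostly from Spp1. Of the 3 tested 2 rose, Spp1 and Sox9 (mean 1.54 to 3.45 CPM), and 1, Krt19, fell from 71.3 to 35.1 CPM. Epcam, Krt7 and Cldn4 were under 1 CPM on average. The 7 mesothelial and portal fibroblast markers went from 8.82 to 11.4 up to 24.8 to 33.4 CPM. This came mostly from Cd34 (mean 3.86 to 19.6 CPM) and Thy1 (0.650 to 4.95 CPM). Wt1 and Entpd2 did not pass, and Msln, Upk3b and Upk1b were under 1 CPM on average. The 5 smooth muscle markers went from 407 to 430 down to 301 to 360 CPM. The part of these lists in the results below was not tested.

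The genes for NRF2 and for its inhibitor both rose. Nfe2l2 (mm10 chromosome 2, 75675513 to 75704663) was at 258, 259.6 and 271 CPM in vehicle A, B and C and at 379, 342 and 355 CPM in forskolin A, B and C. All 3 forskolin libraries were above all vehicle libraries, and the rise was 1.36-fold (log2 fold change 0.45, SE 0.0446, edgeR adjusted p = 1.46e-07). Keap1 (chromosome 9, 21229730 to 21239332), the adaptor that hands NRF2 to a ubiquitin ligase, was at 82.4, 84.6 and 79.9 CPM with vehicle and 98.5, 111 and 107.6 CPM with forskolin. Its rise of 0.36 (adjusted p = 1.81e-05) left the groups apart. Per kilobase of exon, the ratio of Nfe2l2 RNA to Keap1 RNA was 5.73 ± 0.305 with vehicle and 6.11 ± 0.709 with forskolin (SD, n = 3 each). No difference in this ratio was resolved (exact permutation test, two-sided p = 0.6, with 0.1 the smallest that 3 against 3 libraries allow). Of the Keap1 transcript, 88.2% of 50-base stretches occur in no other gene, the rest being shared with the overlapping Gm16754, and the counting was not stated to use strand.

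Of Nqo1, Hmox1 and Osgin1, 3 genes known as NRF2 targets, 1 rose, 1 fell and 1 did not pass. The quinone reductase gene Nqo1 (chromosome 8, 107388225 to 107403205) was at 147, 143 and 147 CPM in vehicle A, B and C, and at 302, 279 and 284 CPM in forskolin A, B and C. The groups were far apart and the rise was 1.98-fold (SE 0.0435 on the log2 scale, adjusted p = 1.84e-12). Hmox1 (chromosome 8, 75093618 to 75100593), which encodes the haem-degrading enzyme haem oxygenase 1, was at 534, 503 and 542 CPM with vehicle and 559.8, 475 and 482 CPM with forskolin. These groups overlapped and the gene did not pass (log2 fold change -0.06, SE 0.0547, adjusted p = 0.391). Forskolin A was the highest of all 6 libraries and forskolin B and C the lowest. Without forskolin A, Hmox1 was called lower at -0.13 (adjusted p = 0.0155), and with library size as a covariate at -0.23 (adjusted p = 0.00417). Osgin1 (chromosome 8, 119437162 to 119446256), an oxidative stress-induced growth inhibitor gene, was at 55.1, 54.1 and 50.5 CPM with vehicle and 46.3, 47.8 and 42.1 CPM with forskolin. It fell by 0.23 on the log2 scale (adjusted p = 0.00729), with all forskolin libraries below the vehicle ones. With library size as a covariate its adjusted p was 0.224. Within each library, Nqo1 RNA per kilobase was 0.281 ± 0.00634 of Hmox1 RNA with vehicle and 0.581 ± 0.0289 with forskolin, without overlap (exact permutation p = 0.1, the smallest possible). Hmox1 remained the more abundant of the pair. By CPM per kilobase of exon in vehicle it held rank 20 of the 13357 tested genes, at 336.

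**Figure D2:**
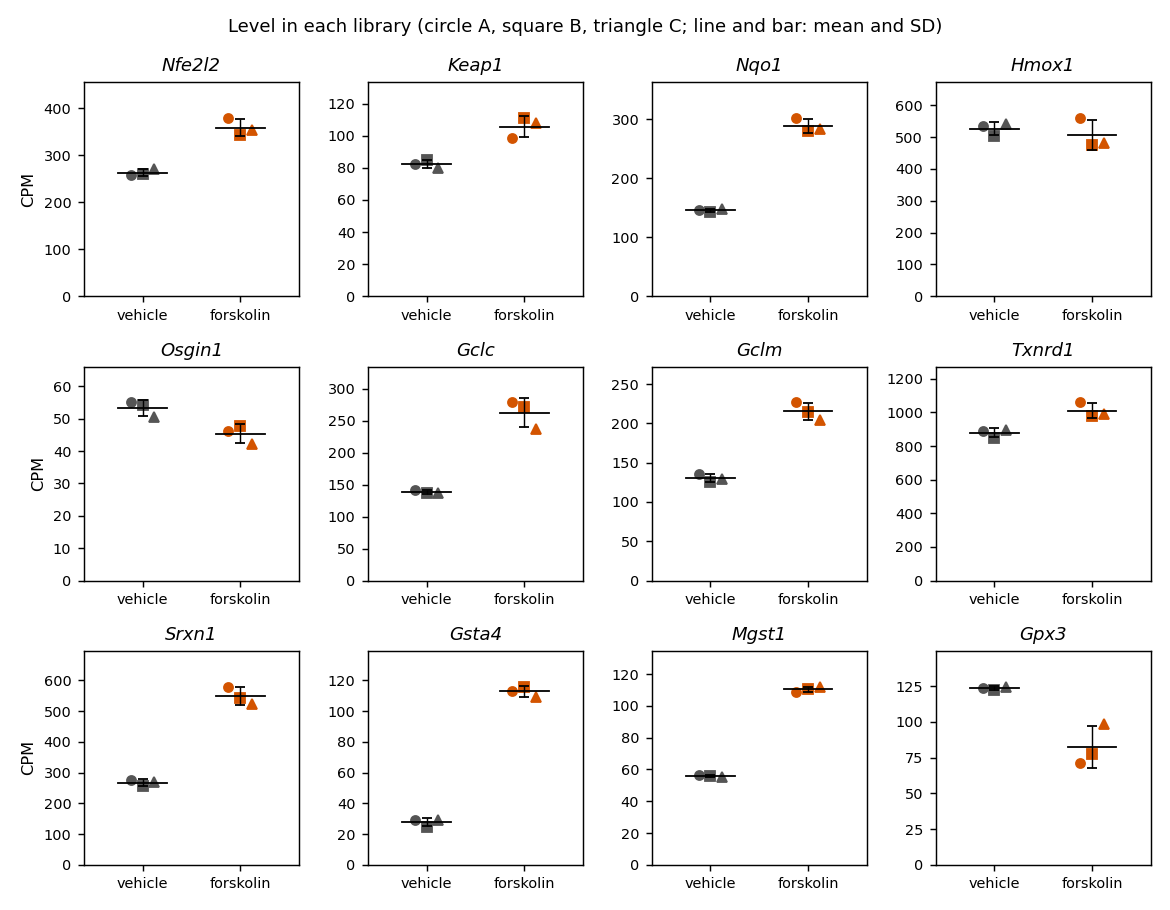
CPM (y axis, from 0) of 12 of the genes in each vehicle and forskolin library. Each symbol is a library, and the line and bar are the mean and SD of 3. Hmox1 overlaps between groups, Osgin1 and Gpx3 are lower with forskolin in all 3 libraries, and the other 9 genes are higher in all 3.

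Short promoter stretches are shown because they hold the letters that NRF2 or its relatives are known to read in several of the genes described here. RefSeq promoter sequence (GRCm38.p6, 250 bases before to 50 after the gene's start) was matched for 33 of the 39 genes, and 27 of these starts were identical to those of the deposited table. For 3 genes the nearest listed start was over 50 bases from the deposited one (Gstt1 853, G6pdx 281 and Gpx4 77). They are kept in the counts that follow. The antioxidant response element core, TGACNNNGC on either strand, was found in 9 of the 33 windows, and in 12.4% of 32544 different promoter windows of the same length. Of 19 matched genes that rose 8 held it, of 5 that fell 0, and of 9 that did not pass 1. The AP-1 site, TGANTCA, was found in 5 windows (7.79% of all promoters), and it can overlap the core, as in Prdx1. The full cyclic AMP response element, TGACGTCA, was found in 0 windows (1.8% of all promoters). These matches describe letters within a short window, and distal elements were not searched. Capitals mark the core, read on the strand of the gene, in these stretches that lie before the start:
Nfe2l2, chr2:75704875-75704913, minus strand: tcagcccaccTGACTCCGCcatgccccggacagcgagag
Gclm, chr3:122245403-122245451, plus strand: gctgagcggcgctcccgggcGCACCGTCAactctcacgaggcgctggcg
Mgst1, chr6:138140451-138140499, plus strand: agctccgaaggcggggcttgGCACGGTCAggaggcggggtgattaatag
Txnrd1, chr10:82859094-82859142, plus strand: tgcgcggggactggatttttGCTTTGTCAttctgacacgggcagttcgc
Prdx1, chr4:116685446-116685494, plus strand: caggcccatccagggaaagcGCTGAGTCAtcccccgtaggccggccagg
Sod1, chr16:90220686-90220734, plus strand: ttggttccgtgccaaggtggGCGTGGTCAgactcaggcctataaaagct
Gstm5, chr3:107895792-107895840, plus strand: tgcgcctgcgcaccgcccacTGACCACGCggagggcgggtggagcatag

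In Gclm, Mgst1, Txnrd1, Prdx1 and Sod1 the core lies on the opposite strand, so it appears here as its reverse complement. The first capital base was 240 bases before the start in Nfe2l2, 134 in Gclm, 133 in Prdx1, 92 in Txnrd1, 56 in both Mgst1 and Sod1, and 42 in Gstm5. The cores of Srxn1 and G6pdx are not printed, as that of Srxn1 lies after its start and the nearest listed start of G6pdx was over 50 bases from the deposited one. The AP-1 sites shown next lie within TGAGTCAGC, read on the gene's strand in Srxn1 and Gstp1 and on the opposite strand in Osgin1. This differs from the core only in having G for C after TGA, so the core search did not count it. Whether NRF2 reads these stretches was not tested. An AP-1 site (capitals) before the start is shown for a gene that more than doubled, 1 that rose modestly and 1 that fell:
Srxn1, chr2:152105459-152105505, plus strand: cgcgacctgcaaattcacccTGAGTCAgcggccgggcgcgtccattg
Gstp1, chr19:4037960-4038006, minus strand: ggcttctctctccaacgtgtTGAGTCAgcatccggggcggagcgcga
Osgin1, chr8:119437030-119437076, plus strand: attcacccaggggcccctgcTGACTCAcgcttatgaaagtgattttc

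Genes for making and recycling glutathione rose in 3 of 4 cases. Gclc (chromosome 9, 77754535 to 77794489), the catalytic subunit of glutamate cysteine ligase and the rate-limiting enzyme of the pathway, was at 142, 137 and 137 CPM in vehicle A, B and C and 279, 273 and 237 CPM in forskolin A, B and C. It rose 1.89-fold (log2 fold change 0.92, SE 0.054, adjusted p = 1.03e-10), with forskolin C lowest of its group but well above any vehicle library. The deposited Gclc row is a RefSeq transcript of the non-coding class, so its exons may differ from those of the coding transcript. Gclm (chromosome 3, 122245557 to 122267215), the modifier subunit that makes the enzyme more efficient, was at 135, 126 and 129 CPM with vehicle and 227, 214 and 204 CPM with forskolin, a 1.65-fold rise (SE 0.0479 on the log2 scale, adjusted p = 5.38e-10). The catalytic subunit rose more. Per kilobase, Gclm over Gclc was 1.64 ± 0.0314 with vehicle and 1.44 ± 0.067 with forskolin, and the libraries did not overlap (exact permutation p = 0.1, the smallest possible). Gsr (chromosome 8, 33653238 to 33698162), the reductase that returns oxidised glutathione to its reduced form, was at 107, 102 and 104 CPM with vehicle and 156, 162 and 149 CPM with forskolin and rose by 0.58 (adjusted p = 8.45e-09). Gss, glutathione synthetase, which adds the last amino acid, was at 71.2 ± 1.98 and 77.9 ± 4.59 CPM and did not pass (log2 fold change 0.13, adjusted p = 0.0657). It passed without forskolin B (0.0223) and with unscaled library sizes (0.0171). Its transcript overlaps Acss2, Gssos1 and Gssos2.

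Glutathione peroxidases, which use glutathione to reduce peroxides, were not among the genes that rose. Of 5 members 2 fell, 3 did not pass and 0 rose (edgeR, 0 also at an unadjusted p under 0.05 and 0 with DESeq2). Gpx3 (chromosome 11, 54902854 to 54910387), the secreted peroxidase of plasma, was at 124, 122 and 125 CPM in vehicle A, B and C and 71.3, 77.4 and 98.8 CPM in forskolin A, B and C. It fell by 0.58 on the log2 scale (SE 0.0791, adjusted p = 7.13e-06). The forskolin libraries spread widely, with C nearest to vehicle, and without C the change was -0.73. Gpx8 (chromosome 13, 113042763 to 113046388), a membrane peroxidase of the endoplasmic reticulum, was at 138, 133 and 140.4 CPM with vehicle and 110.04, 110.1 and 122 CPM with forskolin. It fell by 0.27 (adjusted p = 0.0002), and the groups did not overlap. Gpx4, the enzyme that reduces lipid peroxides in membranes, was at 117, 107 and 117 CPM with vehicle and 118, 117 and 127 CPM with forskolin and did not pass (log2 fold change 0.08, adjusted p = 0.181). Only 31.1% of its 50-base stretches were unique, so its count is uncertain. The abundant cytosolic peroxidase gene Gpx1 had a log2 fold change of 0.07 and the endoplasmic reticulum enzyme gene Gpx7 one of -0.05. Gpx1 and Gpx4 passed, at 0.12 and 0.13, when TMM was replaced by unscaled library sizes. Within the 5 peroxidases, Gpx3 held 14.7% ± 0.342 of the summed CPM per kilobase with vehicle and 10.4% ± 1.21 with forskolin, and Gpx1 29.1% ± 0.444 and 32.9% ± 0.627 (exact permutation p = 0.1 for each, the smallest possible).

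Glutathione transferases, which couple glutathione to electrophiles, held both the gene that rose most among the 39 and genes that fell. Of 9 members 4 rose, 2 fell and 3 did not pass. Gsta4 (chromosome 9, 78191966 to 78209349), an alpha-class enzyme known for conjugating the lipid aldehyde 4-hydroxynonenal, was at 29.2, 24.6 and 29.2 CPM in vehicle A, B and C and 113, 116 and 109 CPM in forskolin A, B and C. It rose 4.09-fold (log2 fold change 2.03, SE 0.0659, adjusted p = 3.88e-14), and every forskolin library was above 100 CPM. Mgst1 (chromosome 6, 138140527 to 138156754), a microsomal transferase with peroxidase activity, was at 56.5, 56.0 and 55.2 CPM with vehicle and 109, 110.4 and 112 CPM with forskolin, a 1.98-fold rise (adjusted p = 1.13e-11) with little spread in either group. Mgst3 (chromosome 1, 167372384 to 167393797), another microsomal family member, went the other way. It was at 16.2, 13.7 and 14.8 CPM with vehicle and 10.3, 10.96 and 10.2 CPM with forskolin, and fell by 0.51 (SE 0.116, adjusted p = 0.00138). Mgst1 over Mgst3 RNA per kilobase was 2.23 ± 0.178 with vehicle and 6.26 ± 0.275 with forskolin, without overlap (exact permutation p = 0.1, the smallest possible).

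Among the soluble classes, the pi-class gene Gstp1 (chromosome 19, 4035411 to 4037912) was at 82.0, 74.6 and 82.4 CPM with vehicle and 106.6, 100.9 and 100.9 CPM with forskolin and rose by 0.37 (adjusted p = 1.31e-05). Just 37.7% of its stretches were unique, since it is a near copy of Gstp2, so the value may hold reads of both. The mu-class genes sit side by side on chromosome 3 and share sequence. Gstm2 (90.6% unique) rose by 0.13, a call that was lost with DESeq2 (adjusted p = 0.0938), with library size as a covariate, and on leaving out forskolin B (0.0513), forskolin C (0.137), vehicle A (0.0568), vehicle B (0.085) or vehicle C (0.111). Gstm1 (76.9% unique) and Gstm5 (85.6% unique) had log2 fold changes of 0.09 and 0.03 and did not pass. Gstm1 passed without forskolin A (adjusted p = 0.0207) and with unscaled library sizes (0.0228). The omega-class gene Gsto1 was at 0.10 (adjusted p = 0.105). It passed without forskolin B (0.0365) and with unscaled library sizes (0.0165). The theta-class gene Gstt1, the least abundant member per kilobase, was at 11.1, 11.3 and 11.8 CPM with vehicle and 7.88, 9.18 and 9.41 CPM with forskolin. It fell by 0.36 (SE 0.126, adjusted p = 0.0231), a call lost with DESeq2 (0.0903), with library size as a covariate (0.272), and without forskolin A (0.0785), vehicle B (0.0561) or vehicle C (0.079).

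The make-up of the transferase RNA differed between the groups. Gsta4 held 4.12% ± 0.274 of the summed CPM per kilobase of the 9 genes with vehicle and 13.2% ± 0.536 with forskolin. Mgst1 held 7.49% ± 0.259 and 11.6% ± 0.0938. Gstm1 and Gsto1, the most abundant members in vehicle cells, held 24.8% ± 0.063 and 23.7% ± 0.295 with vehicle and 20.6% ± 0.907 and 19.9% ± 1.12 with forskolin. Each of these shares was separated between the groups (exact permutation p = 0.1, the smallest possible), while that of Gstp1 was 15.3% ± 0.382 and 15.5% ± 0.596 (p = 0.7). The sum itself went from 707 ± 23.2 to 903 ± 10.5 CPM per kilobase.

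**Figure D3:**
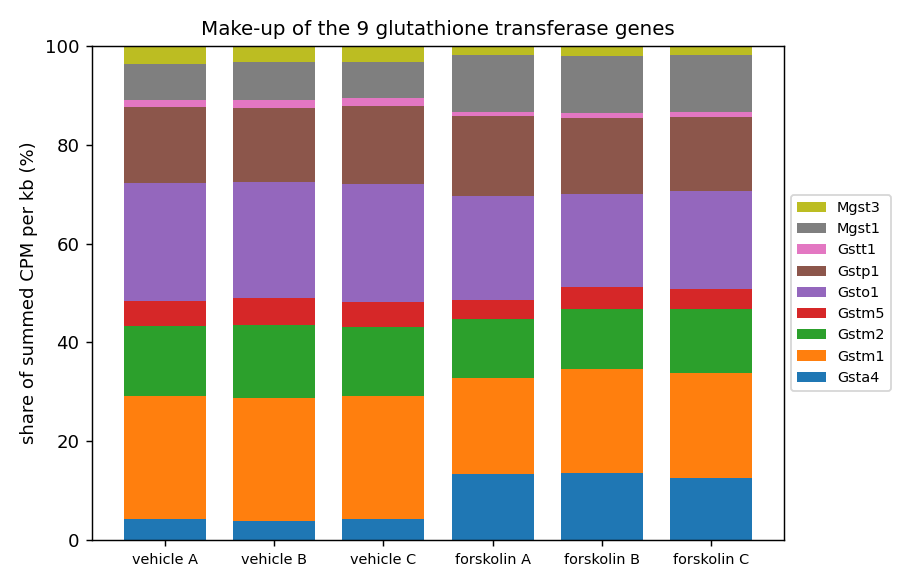
Share of each of the 9 transferase genes in their summed CPM per kilobase of exon (y axis, percent), with 1 stacked bar per library. The bottom segment, Gsta4, is 3.80% to 4.30% in vehicle and 12.6% to 13.6% in forskolin libraries.

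Thioredoxin and peroxiredoxin genes rose by small amounts, apart from sulfiredoxin. Of 8 members 6 rose and 2 did not pass. With library size as a covariate 3 rose, Srxn1, Prdx1 and Prdx5. Srxn1 (chromosome 2, 152105524 to 152111376) encodes sulfiredoxin, which repairs peroxiredoxins whose active cysteine has been over-oxidised. It was at 276, 256 and 270.2 CPM in vehicle A, B and C and 579.9, 541 and 522 CPM in forskolin A, B and C, a 2.05-fold rise (SE 0.0468 on the log2 scale, adjusted p = 2.59e-12). Txnrd1 (chromosome 10, 82859206 to 82897724), the cytosolic selenoenzyme that passes electrons from NADPH to thioredoxin, was at 891, 850.2 and 898 CPM with vehicle and 1060.1, 977 and 989 CPM with forskolin. All forskolin libraries were above vehicle, and the rise was 0.20 on the log2 scale (SE 0.0442, adjusted p = 0.00118). With library size as a covariate it was 0.10 (adjusted p = 0.0842). Prdx1 (chromosome 4, 116685599 to 116700000), an abundant cytosolic peroxiredoxin gene, was at 231, 219.6 and 232 CPM with vehicle and 297, 274 and 286 CPM with forskolin and rose by 0.33 (adjusted p = 5.48e-06). Prdx5, the peroxiredoxin of mitochondria and peroxisomes, was at 213, 196 and 218 CPM with vehicle and 249.9, 245 and 265 CPM with forskolin and rose by 0.28 (adjusted p = 8.67e-05). Its stretches were 70.3% unique, as it overlaps Trmt112.

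Thioredoxin itself, Txn1, was at 129 ± 7.49 and 144 ± 6.02 CPM and rose by 0.16 (adjusted p = 0.0145). The call was lost without vehicle B (0.104), and with the covariate the change was 0.035 (0.724). Prdx2, a cytosolic peroxiredoxin gene, rose by 0.19 (adjusted p = 0.00107, or 0.0976 with library size as a covariate) and was 76.2% unique. Prdx6, which reduces phospholipid peroxides with glutathione, was at 0.04 (adjusted p = 0.527), and the mitochondrial reductase gene Txnrd2 at 0.0083 (adjusted p = 0.951). Per kilobase, Srxn1 RNA was 0.344 ± 0.00646 of the summed Prdx1 and Prdx2 RNA with vehicle and 0.584 ± 0.0269 with forskolin (exact permutation p = 0.1, the smallest possible). Txnrd1 over Txn1 was 2.09 ± 0.0618 and 2.15 ± 0.0788 (exact permutation p = 0.3).

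Enzymes that remove superoxide and hydrogen peroxide rose in 3 of 4 cases. Catalase, Cat (chromosome 2, 103453904 to 103485153), the peroxisomal enzyme that splits hydrogen peroxide, was at 145, 145 and 144 CPM in vehicle A, B and C and 215, 213 and 200.3 CPM in forskolin A, B and C. It rose 1.45-fold (log2 fold change 0.53, SE 0.043, adjusted p = 8.59e-09). Sod3 (chromosome 5, 52363804 to 52369738), the extracellular dismutase, was at 138, 149 and 142 CPM with vehicle and 180.4, 196 and 225 CPM with forskolin, and rose by 0.49 (SE 0.0623, adjusted p = 3.07e-06) with a wide spread among the forskolin libraries. Sod1 (chromosome 16, 90220742 to 90226324), the cytosolic copper and zinc enzyme, was at 119, 109.5 and 119 CPM with vehicle and 147, 136 and 142 CPM with forskolin and rose by 0.29 (adjusted p = 8.6e-05). Its adjusted p was 0.0506 with library size as a covariate, and 76.9% of its stretches were unique. The mitochondrial manganese enzyme gene Sod2 was at 83.8 ± 0.451 and 88.3 ± 3.95 CPM and did not pass (log2 fold change 0.08, adjusted p = 0.226).

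All 4 genes of the pentose phosphate pathway rose. The NADPH-producing steps rose most. G6pdx (chromosome X, 74409486 to 74429161), glucose 6-phosphate dehydrogenase and the entry enzyme, was at 172, 167 and 178 CPM in vehicle A, B and C and 252, 251 and 252 CPM in forskolin A, B and C. The forskolin libraries were nearly level, and the rise was 1.46-fold (SE 0.0411 on the log2 scale, adjusted p = 3.15e-09). Of its stretches 89.3% were unique, the rest being shared with the retrogene G6pd2 and the overlapping Ikbkg. Pgd (chromosome 4, 149149991 to 149166705), phosphogluconate dehydrogenase, was at 344, 335 and 350.3 CPM with vehicle and 499, 477 and 484 CPM with forskolin and rose by 0.50 (adjusted p = 6.81e-09). The enzymes of the non-oxidative branch changed less. Taldo1, transaldolase, was at 330.5, 306 and 333 CPM with vehicle and 389, 363 and 384 CPM with forskolin, a rise of 0.23 (adjusted p = 0.000332). Tkt, transketolase, went from 288 ± 6.56 to 333 ± 11.9 CPM, a rise of 0.21 (adjusted p = 0.000403). Both calls were lost when library size was a covariate, with an adjusted p of 0.0768 for Taldo1 and 0.0526 for Tkt, which left 2 genes higher. The difference between the branches was not tested.

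Levels per kilobase of exon spread widely among the members in vehicle cells. After Hmox1 the most abundant were Txnrd1 at 259 CPM per kilobase (rank 75 of 13357), Taldo1 at 255 (rank 78) and Sod1 at 181 (rank 192). At the other end were Gstt1 at 11.05 (rank 6949) and Txnrd2 at 11.6 (rank 6810), whose order is within their spread. Gsta4 was at 29.2 CPM per kilobase with vehicle and 119 with forskolin.

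Other genes of the pathway were read from 8 lists with 138 genes, all found in the table. For comparison with their counts, 24.8% of all tested genes rose and 25.1% fell. Of 20 genes of glutathione supply and turnover 9 rose and 2 fell (median log2 fold change 0.14). The leading ones supply cysteine or break glutathione down. Slc7a11, the cystine transporter subunit, went from 83.2 ± 3.86 to 331 ± 55.1 CPM, Cth, which makes cysteine from cystathionine, from 5.95 ± 0.542 to 26.8 ± 2.42 CPM (log2 fold change 2.17), and Chac1, a glutathione-degrading enzyme gene, from 13.5 ± 1.46 to 41.6 ± 2.34 CPM (1.62). Slc7a11, Cth and Chac1 are also known as targets of ATF4, the transcription factor of the amino acid response. Of 17 other NRF2 targets tested 11 rose and 1 fell (median 0.28). The carbonyl reductase gene Cbr3 went from 50.2 to 78.4 CPM, the aldehyde oxidase gene Aox1 from 11.1 to 26.9 CPM, and the glucuronosyltransferase gene Ugt1a6a from 1.499 to 11.7 CPM. Of Ugt1a6a 0% of the stretches were unique, since the Ugt1a genes share their last exons, so this value cannot be given to 1 of them.

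Of 14 other glutathione transferase genes tested 5 rose and 9 did not pass (median 0.22). The leading 3 were alpha-class genes like Gsta4 and were far less abundant. Gsta3 went from 5.89 ± 1.04 to 23.5 ± 1.13 CPM (3.99-fold, adjusted p = 3.51e-10), Gsta1 from 4.51 ± 0.426 to 16.5 ± 0.547 CPM (log2 fold change 1.87) and Gsta2 from 0.373 ± 0.268 to 2.99 ± 0.902 CPM (3.10). Gsta3 was fully unique, while Gsta1 and Gsta2 share most stretches with each other and with other genes, among them Gm10639 and Gm3776 (10.3% and 35.8% unique).

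Among NRF2 partners and regulators 5 of 11 rose and 1 fell (median 0.06), with 3 higher with DESeq2, without vehicle B, without vehicle C or with library size as a covariate. Sqstm1, whose product p62 binds KEAP1, went from 616 to 779 CPM and the small MAF gene Mafg from 56.5 to 73.2 CPM, while the sestrin gene Sesn2 fell from 99.2 to 70.5 CPM. The NRF2 competitor gene Bach1 was at 55.0 and 57.4 CPM (adjusted p = 0.528). Of 14 other NADPH genes 4 rose, a share near the 24.8% of all tested genes, and 10 did not pass (median 0.07). Those that rose were led by the isocitrate dehydrogenase gene Idh1 (113 to 154 CPM), the pentose pathway lactonase gene Pgls (46.6 to 62.0 CPM) and the NAD kinase gene Nadk (248 to 276 CPM). Of 17 further thioredoxin, glutaredoxin and methionine sulfoxide reductase genes 2 rose and 3 fell (median -0.03), and 1 rose with DESeq2, with the covariate, or without forskolin C, vehicle A or vehicle B. With the covariate 1 fell. The nucleoredoxin gene Nxn went from 66.7 to 95.6 CPM, the glutaredoxin gene Glrx3 from 113 to 87.2 CPM and the methionine sulfoxide reductase gene Msrb1 from 63.6 to 49.8 CPM, the last call being lost with library size as a covariate. Glrx3 was 54.6% unique. Of 19 selenoprotein and selenium genes 6 rose and 5 fell (median -0.03), shares near the 24.8% and 25.1% of all tested genes. Sephs2, which makes the selenium donor, went from 75.6 to 53.9 CPM, Selenow from 75.7 to 95.3 CPM and Selenon from 157 to 183 CPM. Sephs2 was 65.1% unique. Of 15 genes for sources of superoxide and peroxide only 6 were abundant enough to test. The xanthine dehydrogenase gene Xdh rose from 395 to 483 CPM. The NADPH oxidase gene Nox4 fell from 2.08 to 1.12 CPM, a call lost with DESeq2, with the covariate and without either forskolin B or vehicle B, and the oxidase subunit gene Cyba was at 70.2 and 66.6 CPM (adjusted p = 0.348).

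**Figure D4:**
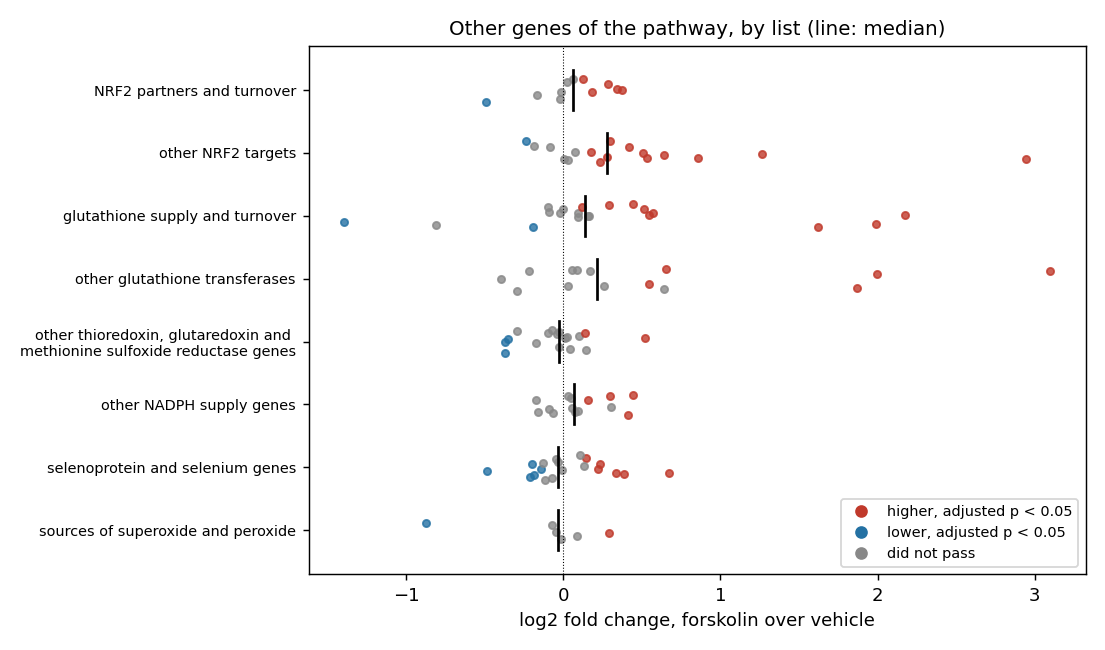
Log2 fold change of forskolin over vehicle (x axis) for each tested gene of the 8 lists of other pathway genes. Each point is a gene coloured by its call, and the vertical line is the list's median, which is highest for the other NRF2 targets at 0.28.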

How the data were processed

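Exon reads of each gene come as raw estimated counts in 1 table that the authors deposited (24940 rows). STAR, HOMER and mm10 are named per the submitters' processing notes, while versions, settings and the handling of multi-mapped reads were not given in the sources. The values come in steps of 0.5, 31.8% of them not whole, and were rounded to whole numbers for tests. The low-count filter was filterByExpr (at least 10 counts, total 15) of edgeR 4.0.16 (R 4.3.3). TMM scaling and the quasi-likelihood test followed, with group as the only term and Benjamini-Hochberg adjustment over 13357 genes at a threshold of 0.05. The fit was tested on simulated data. It recovered 68% of 50 genes changed 1.25-fold and 92% of 50 changed 1.5-fold, with 11 calls among unchanged genes. Small changes can therefore be missed. CPM values use the deposited counts over TMM-scaled library sizes, and SD is over 3 libraries. The alternatives were RLE or no scaling, DESeq2 1.42.0, 2 other count filters, leaving out each library, a replicate block, a 1.5-fold test, library size as a covariate, and only genes of at most 1 count per base.

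Unique stretches are 50-base stretches of a GENCODE M21 transcript found in no other gene's transcript on either strand. The members and lists were chosen with earlier results of these data known. All members are accounted for. Values per library are given for the regulators, 7 NRF2 targets chosen by name and the 3 members of each functional group with the smallest adjusted p, and Mgst3 and Gstt1 were added because they fell. Of other lists, up to 3 genes with the smallest adjusted p are named, and Bach1 was added after its values were seen. The stretches with AP-1 sites were also chosen after the values were seen.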

Additional observations from a re-analysis of the deposited data

How the results depend on the processing

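Of the 39 genes, 39 kept direction and call with RLE size factors, with no low-count filter and with a filter of at least 50 counts in 3 libraries, and 37 with DESeq2. With library size as a covariate 4297 genes passed in all, 1998 of them higher, the members' median log2 fold change was 0.13, and 9 members lost their call. Tested against a 1.5-fold change, 1000 genes passed, 422 higher and 578 lower, with 6 members higher and 0 lower. With at most 1 count per base only 15 members remained, of which 6 were higher and 4 lower, with a median of 0.076. This filter leaves out the members with most counts per base. Among those kept, higher and lower calls were more even than among all 39. Leaving out 1 library at a time gave 5640 to 6800 genes (2773 to 3369 higher, 2858 to 3431 lower), 21 to 24 members higher, 4 to 5 lower and a median of 0.17 to 0.22. Signs turned only for members that did not pass. On leaving out 1 library, Gpx7 ranged from -0.12 to 0.014 (without forskolin A), Gstm5 from -0.022 (without forskolin B) to 0.071, and Txnrd2 from -0.090 (without forskolin C) to 0.067, and it was also negative without vehicle A. With library size as a covariate Gpx7 was at 0.069, Gsto1 at -0.036 and Prdx6 at -0.060. The cause of these shifts was not tested. Library size and treatment overlap in these libraries, so the covariate fit cannot fully tell them apart. With a replicate block 6675 genes passed, and 24 members were higher (Gsto1 gained its call, adjusted p = 0.0432) and 5 lower. Same-lettered libraries had correlations of deviations from their group means of 0.0291, 0.0203 and 0.0377. Each was the highest for both libraries of its pair, but all were too low to take the letters as a pairing. Depth limits mainly Gstt1 and Mgst3, which had the widest standard errors among the members.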

Other observations

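Genes around haem oxygenase 1 were read from the list of other NRF2 targets, and were chosen after their values were seen. Of the 5 given, 3 rose and 2 did not pass, where Hmox1 did not pass. Blvrb, a biliverdin reductase gene, went from 69.6 ± 2.46 to 100.5 ± 1.07 CPM (SD, n = 3 each, edgeR adjusted p = 6.48e-08), while Blvra, the main adult biliverdin reductase gene, was at 30.0 ± 2.19 and 26.4 ± 2.67 CPM (adjusted p = 0.0895). Blvra was called lower without forskolin C. Slc48a1, a haem transporter gene, went from 207 ± 5.58 to 276 ± 4.62 CPM (adjusted p = 1.18e-07). The ferritin heavy chain gene Fth1 went from 373 ± 18.9 to 453 ± 11.2 CPM (adjusted p = 3.98e-05), and the light chain gene Ftl1 was at 476 ± 14.3 and 502 ± 14.9 CPM (adjusted p = 0.139), with 9.36% of its stretches unique. Ftl1 passed with unscaled library sizes (0.0131).

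Values of 3 genes of glutathione export and breakdown, also chosen after they were seen, differed in direction. Of other breakdown genes in the list of glutathione supply and turnover, Ggt5, Ggct, Chac1 and Chac2 rose. Ggt7, Oplah, Lap3, Cndp2 and Anpep did not pass. Abcc1, which exports glutathione and its conjugates, went from 289 ± 3.52 to 409.9 ± 36.4 CPM (adjusted p = 2.19e-07), and Ggt1, which cleaves glutathione outside the cell, from 16.0 ± 0.816 to 23.9 ± 2.98 CPM (adjusted p = 0.000153). The dipeptidase gene Dpep1, which acts after that cleavage, went from 4.75 ± 1.27 to 1.79 ± 0.412 CPM (adjusted p = 2e-04, but 0.107 when library size was a covariate).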
